A study of Mus musculus with 5 samples.

Results

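Dyneins are motors that walk along microtubules, and the genes of their protein chains are followed here through the last steps of sperm formation in the mouse. Gene rows were taken from the deposited table when their symbol began with Dnah, Dnai, Dnal, Dync or Dynl, leaving out rows with several symbols and pseudogenes. This gave 36 rows for 35 genes, of 56324 rows in all, because Dnah12 had 2 rows that cover different parts of the gene. The genes lie on 14 chromosomes. The spermatid group held 3 samples of haploid male germ cells, which build the sperm tail, and the spermatocyte group held 2 samples of germ cells in meiosis. Both came from C57Bl/6 males aged 12 weeks, with no genetic change or drug given in the labels, and both were purified by sedimentation at unit gravity (Sta-put). Libraries of polyadenylated RNA were sequenced, and the values are read counts per gene that the authors divided by 1 size factor per library. Whether each sample came from its own mice is not stated, and p-values therefore reflect the spread among these 5 samples alone, part of which may be technical. The title of the series concerns introns kept in transcripts during meiosis, and only gene levels were compared here.

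A dynein is built around heavy chains, which hold the motor, with intermediate, light intermediate and light chains that join heavy chains to each other and to cargo. Axonemal dyneins stand in rows on the microtubule doublets of cilia and sperm tails. The outer arms set mainly the beat frequency and the inner arms the shape of the bend. Cytoplasmic dynein 1 carries cargo towards the minus ends of microtubules and positions nuclei and spindles, and cytoplasmic dynein 2 brings material back from the tips of growing cilia. The smallest light chains are used by both kinds of motor and by unrelated proteins.

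The recovered reads came to 62249782, 84361908 and 76907629 in the spermatid libraries and to 52784231 and 80384019 in the spermatocyte libraries. The lowest count behind any dynein value was 25 reads. Of the 36 rows 14 overlap a row with another symbol. Among heavy chains these are Dnah2, Dnah3, Dnah6, Dnah9, Dnah11, Dnah17 and Dync2h1. The others are Dnaic1, Dnali1, Dync1i1, Dynlrb1, Dynlt1a, Dynlt1c and Dynlt1f. Since the strand setting of the counting is not given in the sources used here, reads of such genes cannot be told apart. All 8 spermatid markers on a list of haploid genes were higher in spermatids, with summed levels of 580049 to 1728900 in spermatids and 13346 to 17446 in spermatocytes. Of 8 spermatocyte markers 4 were lower in spermatids, 1 was higher and 3 did not pass the test, with sums of 35339 to 45681 in spermatids and 70939 to 77964 in spermatocytes. All 10 Sertoli cell markers and all 5 Leydig cell markers were lower in spermatids. The Sertoli sums were 1518 to 2123 in spermatids and 57182 to 75607 in spermatocytes, and the Leydig sums were 104 to 281 in spermatids and 2237 to 2761 in spermatocytes. Of 8 markers of myoid, endothelial, macrophage and blood cells 5 were higher in spermatids, 1 (Pecam1) was lower and 2 did not pass the test. Their sums were 2009 to 2673 in spermatids and 366 to 497 in spermatocytes. Of 8 spermatogonial markers 4 were higher in spermatids and 1 lower. No marker was at 0 in every sample. Spermatid replicate 1 stood apart, with spermatid markers at a median of 2.76 times the mean of replicates 2 and 3. The markers ranged from 0.954 to 4.15 for that ratio, and Acrv1 (0.954) and Spaca1 (0.974) were not raised. The dynein rows had a median of 1.09 for the same ratio, with a range of 0.648 to 1.503. In bulk samples of this kind, fewer cells of a type and less RNA per cell cannot be told apart.

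All 36 dynein rows had a mean of at least 10 over the 5 samples and were tested. Of these, 17 were higher in spermatids, 12 were lower and 7 did not pass the test (limma on log2(value + 1), Benjamini-Hochberg adjusted p under 0.05 over 28370 rows). This is 80.6% of the dynein rows, and 77.1% of all rows tested were called, 40.6% higher and 36.5% lower, so the share called is close to that of the whole table. Spermatid and spermatocyte values were fully separated for 31 of the 36 rows, against 85.8% of all rows tested. Of the 36 rows 7 were at least 2-fold higher and 4 at least 2-fold lower in spermatids, beside 33.2% and 28.7% of all rows. At least 8-fold higher were 4 rows, Dnah3, Dnah5, Dnah9 and Dynll2, against 19% of all rows. The median log2 fold change of the dynein rows was 0.13, and that of all rows tested was 0.07. With the deposited scaling, axonemal heavy chains had 5 rows higher and 9 lower. All 5 axonemal intermediate and light chain rows with a Dnai or Dnal symbol were higher, as were 5 of 9 shared light chain rows. None of these 14 was lower. With equal library totals axonemal heavy chains had 4 rows higher and 10 lower, axonemal intermediate and light chains 1 and 1, and shared light chains 3 and 4. Quantile normalization gave 4 higher and 10 lower for the heavy chains, 0 higher and 2 lower for the axonemal intermediate and light chains, and 3 higher and 4 lower for the shared light chains. The difference between the groups of chains was not tested.

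**Figure D1:**
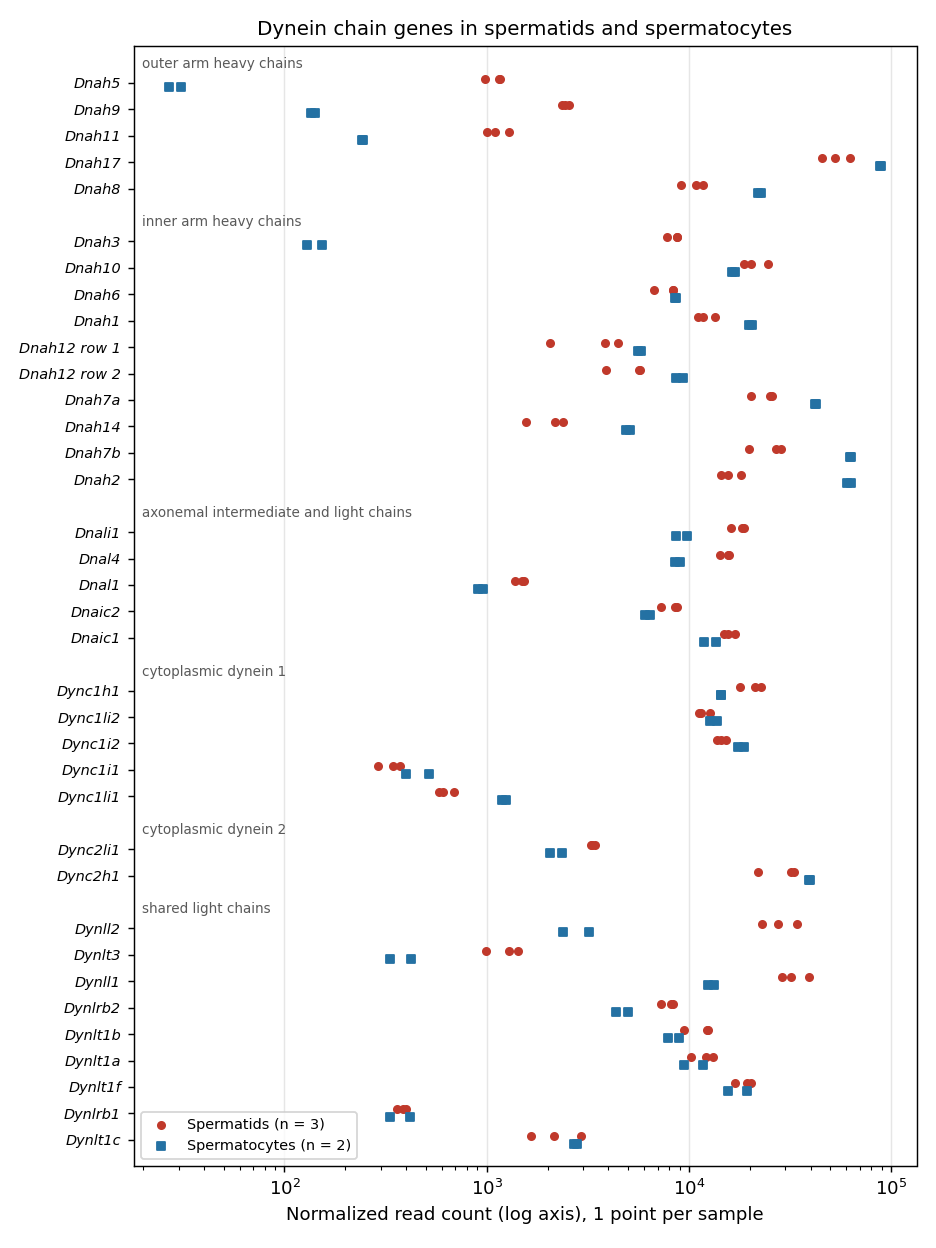
Normalized read count of each dynein chain row on a log axis, with 1 point per sample: circles for the 3 spermatid samples and squares for the 2 spermatocyte samples, ordered within each role by fold change. Dnah5, Dnah9 and Dnah3 show the widest gaps, with Dnah3 between 7826 and 8779 in spermatids and at 154 and 129 in spermatocytes, while Dnah17 has the highest count in all 5 samples (counts are not divided by gene length).

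The outer arm heavy chains fell into a set that was higher in spermatids and a set that was lower. Higher were Dnah5, Dnah9 and Dnah11, which form the outer arms of motile cilia in the airway. Lower were Dnah8 and Dnah17, their counterparts in the sperm tail. Dnah5, on chromosome 15 at 28203765 to 28472045 (mm10, plus strand), had normalized read counts of 1169, 981 and 1156 in the spermatid samples, against 26.9 and 30.8 in the spermatocyte samples. Its log2 fold change was 5.20 ± 0.17 (SE), limma adjusted p = 8.5e-07, which is 38.2-fold on this scale, and the spermatocyte values rest on 25 and 46 reads. Dnah9 had 2349, 2451 and 2567 in spermatids and 135 and 141 in spermatocytes, a log2 fold change of 4.15 ± 0.11 (SE), limma adjusted p = 5.2e-07. Dnah11 had 1289.9, 1000.02 and 1100.4 in spermatids and 246 and 241 in spermatocytes, a log2 fold change of 2.20 ± 0.15 (SE), limma adjusted p = 1.7e-05. All 3 spermatid samples were above both spermatocyte samples for each of these genes, by 4.65-fold to 38.2-fold on average.

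Dnah17, on chromosome 11 at 118021723 to 118129219 (minus strand), had the highest normalized read count of the dynein rows in every sample. It had 45548, 52931 and 62867 in spermatids, against 89155 and 88604 in spermatocytes, and a log2 fold change of -0.74 ± 0.14 (SE), limma adjusted p = 0.0025. Dnah8 had 10812, 9098 and 11702 in spermatids and 22628 and 21979.8 in spermatocytes, a log2 fold change of -1.09 ± 0.12 (SE), limma adjusted p = 1.8e-04. Every spermatid value lay below every spermatocyte value for both genes. In spermatids the sperm chains still stood above the ciliary ones. Per kilobase of exon, Dnah8 averaged 429.9 ± 54.0 in spermatids and Dnah5 70.6 ± 6.72, while Dnah17 averaged 3347 ± 541, Dnah9 154 ± 6.85 and Dnah11 78.2 ± 10.2 (SD, n = 3). Of the summed level of Dnah5 and Dnah8 per kilobase, Dnah5 took 14.1% ± 0.62 (SD, n = 3) in spermatids and 0.203% ± 0.024 (SD, n = 2) in spermatocytes. The lengths used were 15617 exon bases for Dnah5 and 24514 for Dnah8, so division by length raised the share of Dnah5. Of the sum of Dnah9, Dnah11 and Dnah17, Dnah9 took 4.36% ± 0.46 in spermatids and 0.156% ± 0.0056 in spermatocytes, and Dnah11 2.24% ± 0.58 in spermatids and 0.303% ± 0.0030 in spermatocytes. These shares do not depend on the size factors. The exact permutation test over samples gave p = 0.2 (two-sided) for each of the 3 shares, the smallest value that 3 samples against 2 allow.

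Cells other than germ cells also carry Dnah5, Dnah9 and Dnah11, so markers of multiciliated epithelium, which lines the ducts leaving the testis, are given beside them. Of 5 such genes 4 were in the table. Gmnc, a regulator of multiciliated cells, was higher in spermatids, at 152, 115 and 87.0 against 4.31 and 0 in spermatocytes. Myb and Ccdc78 were lower in spermatids, and Mcidas, the defining regulator, had a mean of 10.8 in spermatids and 3.50 in spermatocytes, below the limit for testing. The summed level of the 4 markers was 125 to 240 in spermatids and 468 to 526 in spermatocytes. Most of the spermatocyte sum was Ccdc78, at 464 and 439, beside 57.4, 60.5 and 31.4 in spermatids. The part of these markers in the result was not tested. The 8 spermatid markers were present in spermatocytes at 1.27% to 1.82% of their spermatid level, and the matching values were 2.62% for Dnah5, 5.61% for Dnah9 and 21.5% for Dnah11.

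Among inner arm heavy chains 1 gene rose strongly and most of the others fell. Dnah3, a single-headed inner arm chain, had 7826, 8751 and 8779 in spermatids, against 154 and 129 in spermatocytes. Its log2 fold change of 5.90 ± 0.12 (SE), limma adjusted p = 3.7e-07 was the largest among the dynein rows, 59.8-fold on this scale. Its spermatocyte level was 1.67% of its spermatid level, inside the range of the spermatid markers given above, and what part RNA shared between the fractions had in this value was not tested. The Dnah3 row, on chromosome 7 at 119925979 to 119952157 (mm10, minus strand), holds 22.7% of the exon bases of the gene and overlaps the row of Lyrm1.

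Dnah2 and Dnah10 are the heavy chains of the double-headed inner arm, and they did not move together. Dnah2, on chromosome 11 at 69420809 to 69549111 (minus strand), had 15539.6, 14369 and 18051 in spermatids, against 63358 and 60306 in spermatocytes, and its log2 fold change of -1.96 ± 0.11 (SE), limma adjusted p = 9.2e-06 was the largest fall among the dynein rows. Dnah10 had 18734, 20396 and 24561 in spermatids and 16993 and 16443 in spermatocytes, a log2 fold change of 0.34 ± 0.13 (SE), limma adjusted p = 0.045, and the value was -0.31 with equal library totals and -0.42 after quantile normalization. The call on Dnah10 held without spermatid replicate 1 and ended when any other library was left out (limma adjusted p = 0.083 to 0.19). As a share of the summed axonemal heavy chain level per kilobase, Dnah2 took 6.42% ± 0.15 in spermatids and 15.9% ± 0.40 in spermatocytes, and Dnah10 took 7.94% ± 0.79 in spermatids and 4.004% ± 0.053 in spermatocytes.

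The remaining inner arm rows were lower in spermatids or did not pass the test. Dnah1, an inner arm chain whose loss in human shortens and bends the sperm tail, had 11147, 11757 and 13416 in spermatids, against 20568 and 19805 in spermatocytes, a log2 fold change of -0.74 ± 0.10 (SE), limma adjusted p = 5.6e-04. Both rows of Dnah12 fell by similar amounts: 4447, 2063 and 3853 in spermatids against 5795 and 5630.4 in spermatocytes for the first (log2 fold change -0.80 with SE 0.31, limma adjusted p = 0.048), and 5738, 3913 and 5665 in spermatids against 8661 and 9349.8 in spermatocytes for the second (-0.84 with SE 0.18, limma adjusted p = 0.0042). The call on the first row ended without spermatid replicate 3 (limma adjusted p = 0.064), spermatocyte replicate 1 (0.17) or spermatocyte replicate 2 (0.16). The rows of Dnah12 hold 18.9% and 14.3% of its exon bases. Dnah14 had 2389, 1562 and 2173 in spermatids and 5123 and 4902 in spermatocytes, a log2 fold change of -1.32 ± 0.18 (SE), limma adjusted p = 5.3e-04, on a row with 16.3% of its exon bases. Dnah6, another single-headed chain, had 8381, 6755 and 8356 in spermatids and 8631 and 8565 in spermatocytes and did not pass the test (log2 fold change -0.14 with SE 0.12, limma adjusted p = 0.31).

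Dnah7a and Dnah7b are copies of 1 inner arm chain gene, both on chromosome 1. Their promoters are shown because the copies moved together and because their transcripts share sequence. These are RefSeq windows of build GRCm38.p6, from 250 bases before to 50 bases after the start of transcription. Capitals mark GTTGCC and AACNGNC, the first a single arm of the paired site read by RFX factors and the second a form of the core read by MYB factors, on either strand. The Dnah7a window lies at chr1:53706735-53707034 on the minus strand and the Dnah7b window at chr1:46066603-46066902 on the plus strand.
Dnah7a: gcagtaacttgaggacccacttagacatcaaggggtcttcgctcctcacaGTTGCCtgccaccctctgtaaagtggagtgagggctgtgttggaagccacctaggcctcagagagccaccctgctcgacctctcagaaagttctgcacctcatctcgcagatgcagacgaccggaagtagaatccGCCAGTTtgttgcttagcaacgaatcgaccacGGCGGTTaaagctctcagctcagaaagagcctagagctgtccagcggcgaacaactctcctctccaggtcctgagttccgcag
Dnah7b: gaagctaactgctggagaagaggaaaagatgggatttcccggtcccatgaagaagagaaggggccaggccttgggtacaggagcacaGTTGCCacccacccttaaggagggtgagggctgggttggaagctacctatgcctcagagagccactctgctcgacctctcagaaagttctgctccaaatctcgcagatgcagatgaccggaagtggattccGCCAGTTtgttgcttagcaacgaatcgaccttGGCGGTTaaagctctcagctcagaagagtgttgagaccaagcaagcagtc
Over 262 aligned bases the windows had 214 identical bases, 81.7%. Each held GTTGCC once and AACNGNC at 2 places. Dnah7a had 25244, 20393 and 25714 in spermatids, against 42783 and 42119.6 in spermatocytes, a log2 fold change of -0.84 ± 0.12 (SE), limma adjusted p = 6.1e-04. Dnah7b had 28689, 19867 and 26869 in spermatids and 62929 and 63060.1 in spermatocytes, a log2 fold change of -1.34 ± 0.16 (SE), limma adjusted p = 2.6e-04. For both copies the spermatid samples lay below the spermatocyte samples without overlap. Of the 50-base stretches of Dnah7a transcripts, 38.6% also occur in transcripts of another gene, mostly Dnah7b, and for Dnah7b this was 30.0%, mostly with Dnah7c. How reads with several matches were assigned is not given in the sources used here, so the separate levels of the copies are uncertain.

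The make-up of the heavy chain pool was then compared within each sample, as the share of each of the 14 axonemal heavy chain genes in their summed level per kilobase of exon. Dnah17 took the largest share in both cell types, 20.1% ± 2.64 (SD, n = 3) in spermatids and 21.3% ± 0.12 (SD, n = 2) in spermatocytes, with overlapping groups. Dnah3 took 15.8% ± 1.95 in spermatids and 0.168% ± 0.020 in spermatocytes. Dnah2, Dnah7a, Dnah7b, Dnah8 and Dnah14 had smaller shares in spermatids, without overlap. Dnah7b took 7.56% ± 1.03 in spermatids and 12.2% ± 0.14 in spermatocytes, and Dnah14 took 4.63% ± 0.77 in spermatids and 7.31% ± 0.15 in spermatocytes. Dnah7a took 11.2% in spermatids and 12.8% in spermatocytes, and Dnah8 took 2.58% in spermatids and 3.51% in spermatocytes. Because the shares are parts of 1 sum, a larger share of Dnah3 leaves less for the other genes. The shares of Dnah12, Dnah1 and Dnah17 overlapped between the groups. The exact permutation test gave p = 0.2 for the other 11 genes, the smallest possible. The groups did not overlap for these genes, but the test cannot pass 0.05 with so few samples. The shares of Dnah3, Dnah12 and Dnah14 rest on rows that hold only part of the gene. The lengths used also differed between the Dnah7 copies, with 12767 exon bases for Dnah7a and 19934 for Dnah7b. With signal not divided by length, the share of Dnah3 was 4.34 percentage points higher in spermatids than in spermatocytes, against 15.6 points per kilobase, and Dnah17 turned to 1.87 points higher, against -1.17 points per kilobase. The 2 rows of Dnah12 differed from each other 1.96-fold per kilobase in spermatids and 2.09-fold in spermatocytes, a measure of how uncertain a level per kilobase is.

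**Figure D2:**
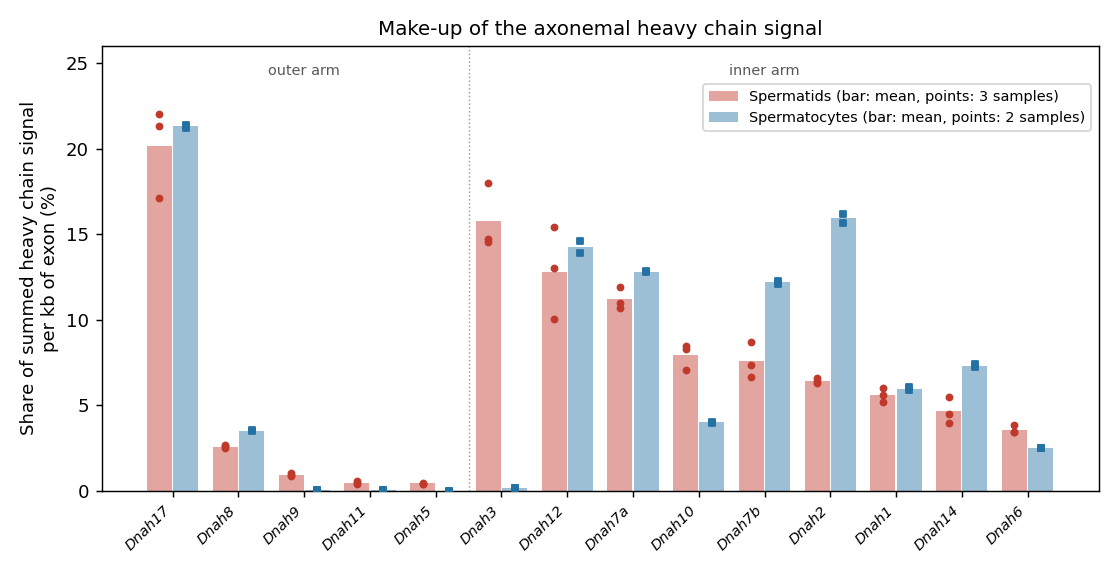
Share (%) of each axonemal heavy chain gene in the summed normalized count per kilobase of exon of the 14 genes, outer arm genes left of the dotted line and inner arm genes right of it. Bars are means and points are samples, 3 for spermatids and 2 for spermatocytes; Dnah3 is at 15.8% in spermatids and 0.168% in spermatocytes, and Dnah2 at 6.42% in spermatids and 15.9% in spermatocytes. Without division by length the difference for Dnah3 is 4.34 percentage points.

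All 5 rows of axonemal intermediate and light chains with a Dnai or Dnal symbol were higher in spermatids with the deposited scaling. Each rose by less than 2-fold, with a median log2 fold change of 0.67. Dnaic1 and Dnaic2 stayed higher with TMM factors (0.32 and 0.41) but turned negative with equal library totals and after quantile normalization. Wdr63 and Wdr78, intermediate chains under other symbols, were counted among the docking and other arm proteins. They did not pass the test (log2 fold changes of -0.11 and 0.06, limma adjusted p = 0.34 and 0.69). Of the 13 genes of that list 7 were higher, among them Nme8 (log2 fold change 1.20, limma adjusted p = 0.0011), and 1 was lower. Dnali1, the light intermediate chain of the single-headed inner arms, had 18785, 18257 and 16215 in spermatids, against 9834 and 8618 in spermatocytes, a log2 fold change of 0.94 ± 0.11 (SE), limma adjusted p = 1.9e-04. Dnal4, an outer arm light chain, had 14183, 15633 and 15800.0 in spermatids and 9009 and 8556 in spermatocytes, a log2 fold change of 0.79 ± 0.09 (SE), limma adjusted p = 2.0e-04. Its row holds 66.4% of its exon bases. Dnal1, a light chain that binds an outer arm motor domain, had 1502, 1538 and 1388 in spermatids and 905 and 954 in spermatocytes, a log2 fold change of 0.67 ± 0.11 (SE), limma adjusted p = 0.0011. No spermatid value overlapped a spermatocyte value for these 3 genes. The intermediate chains of the outer arm rose least. Dnaic1 had 16845, 15627 and 14979 in spermatids and 13652 and 11950.1 in spermatocytes, a log2 fold change of 0.31 ± 0.10 (SE), limma adjusted p = 0.027. Dnaic2 had 8581, 7307 and 8768 in spermatids and 6429 and 6059.5 in spermatocytes, a log2 fold change of 0.39 ± 0.11 (SE), limma adjusted p = 0.014. With equal library totals Dnaic1 was at -0.34 and Dnaic2 at -0.25, and after quantile normalization they were at -0.44 and -0.31. The call on Dnaic1 also ended without spermatid replicate 2 (limma adjusted p = 0.063) or spermatocyte replicate 2 (0.21), and that on Dnaic2 without spermatocyte replicate 1 (0.055) or 2 (0.10). With equal totals 1 of the 5 genes was higher and 1 lower, and after quantile normalization none was higher and 2 were lower.

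The intermediate chains Dnaic1 and Dnaic2 and the shared light chain Dynlrb2 were the 3 members whose promoter windows matched the X-box, the paired site bound by RFX factors that control ciliary genes. The stretches around the match are shown because they place the site close to the start of transcription. Capitals mark the match, in RefSeq sequence of build GRCm38.p6.
Dnaic1, chr4:41569755-41569807, plus strand: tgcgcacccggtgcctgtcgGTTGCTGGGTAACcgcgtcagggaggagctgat
Dnaic2, chr11:114727366-114727418, plus strand: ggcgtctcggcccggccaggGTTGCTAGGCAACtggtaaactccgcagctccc
Dynlrb2, chr8:116504944-116504996, plus strand: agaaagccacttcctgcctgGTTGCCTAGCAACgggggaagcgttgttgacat
The matches began 19, 33 and 51 bases before the start of transcription. Windows were found for 29 of the 35 members. Dnah3, Dynll2, Dync1li2, Dync2li1, Dynlt1a and Dynlt1b had none and were not searched for any motif. The X-box form searched (either strand, 1 to 3 bases between the arms) was in 3 of 29, and in 1.65% of 27025 genes with a window of the same length. The letters of the arms and the spacing were settled after a stricter form had given no match among the members, so these shares were in part fixed by that choice and are not compared. A window without a match can hold a close form: the Dnah7a and Dnah7b windows printed above both hold gttgcttagcaac, which differs at 1 base from the Dynlrb2 match and was not covered by the letters searched. The windows of Dnah6 and Dnah9 also hold a run that differs at 1 base from a match. GTTGCC, which can be part of an X-box, was in 9 of 29 windows, 31.0%, against 14.1% of all genes. AACNGNC was in 15 of 29, 51.7%, against 36.0% of all genes. TGACGTCA, the site of CREB and CREM factors, was in 1 of 29, 3.45%, against 2.03% of all genes. All motifs were searched on both strands.

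Cytoplasmic dynein chains with a Dync symbol changed less than 2-fold in either direction with the deposited scaling. With equal library totals Dync1li1 was at -1.61, Dync2h1 at -1.12 and Dync1i1 at -1.09 on the log2 scale. After quantile normalization Dync1li1 was at -1.43, Dync2h1 at -1.18 and Dync1i2 at -1.08. Wdr60 and Wdr34, chains of dynein 2 under other symbols, were counted among the regulators and adaptors below. Their log2 fold changes were 1.07 and -1.47 (limma adjusted p = 9.9e-05 and 8.7e-06). Dync1h1, the only heavy chain of dynein 1, had 17879, 21287 and 22756 in spermatids, against 14471 and 14344 in spermatocytes, a log2 fold change of 0.51 ± 0.12 (SE), limma adjusted p = 0.0062, which was -0.13 with equal library totals and -0.25 after quantile normalization and lost its call without spermatocyte replicate 2 (limma adjusted p = 0.052). Its intermediate chain gene Dync1i2 had 15186, 14432 and 13833 in spermatids and 18825 and 17418 in spermatocytes and was lower, with a log2 fold change of -0.32 ± 0.09 (SE), limma adjusted p = 0.013, or 0.11 without spermatocyte replicate 1. The other intermediate chain gene, Dync1i1, known best from neurons, had 372, 291 and 346 in spermatids and 397 and 521 in spermatocytes and did not pass the test (log2 fold change -0.44 with SE 0.19, limma adjusted p = 0.067). Of the light intermediate chains, Dync1li1 had 687, 611 and 583 in spermatids, against 1196 and 1249 in spermatocytes, a log2 fold change of -0.97 ± 0.12 (SE), limma adjusted p = 3.7e-04. Dync1li2 had 12706, 11530.5 and 11218 in spermatids and 13707 and 12656 in spermatocytes and did not pass the test (log2 fold change -0.16 with SE 0.09, limma adjusted p = 0.17), with overlapping groups.

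The chains of dynein 2, the motor of retrograde transport in cilia, moved in opposite directions. Its heavy chain Dync2h1 had 33031, 22021 and 31872 in spermatids and 39319 and 39682 in spermatocytes, a log2 fold change of -0.47 ± 0.18 (SE), limma adjusted p = 0.047. This call ended without spermatid replicate 3 (limma adjusted p = 0.055), spermatocyte replicate 1 (0.16) or spermatocyte replicate 2 (0.18). Its light intermediate chain Dync2li1 had 3419, 3323 and 3279 in spermatids and 2369 and 2067 in spermatocytes, a log2 fold change of 0.59 ± 0.10 (SE), limma adjusted p = 0.0014, which was -0.05 with equal library totals. Spermatid replicate 2 was the lowest sample for Dync2h1, and the same held for Dnah2, Dnah6, Dnah7a, Dnah7b, Dnah8, Dnah12, Dnah14 and Dync1i1. With equal library totals none of the 7 cytoplasmic chain rows was higher and 5 were lower, and the same counts came from quantile normalization.

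The shared light chains held the strongest rises outside the heavy chains. Dynll1 and Dynll2 encode LC8, a small dimer that joins dynein intermediate chains and many other proteins. Dynll2, on chromosome 11 at 87979525 to 87998298 (minus strand), had 34135, 27480.3 and 22961 in spermatids, against 2384 and 3202 in spermatocytes, a log2 fold change of 3.33 ± 0.19 (SE), limma adjusted p = 9.1e-06, which is 10.1-fold. Dynll1 had 39416, 31955 and 28823 in spermatids and 13339 and 12481 in spermatocytes, a log2 fold change of 1.36 ± 0.14 (SE), limma adjusted p = 1.3e-04. Both genes were highest in spermatid replicate 1, the library with the highest summed spermatid marker signal, though not every marker was raised there. Their lowest spermatid values were still above every spermatocyte value.

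Dynlrb1 and Dynlrb2 encode the roadblock light chains. Dynlrb2 had 8397, 8128 and 7250.2 in spermatids and 4995 and 4381 in spermatocytes, a log2 fold change of 0.76 ± 0.11 (SE), limma adjusted p = 6.1e-04. Its call held with TMM factors (0.78, limma adjusted p = 2.3e-04) but ended under the other scalings. The value was 0.11 when library totals were made equal (limma adjusted p = 0.32) and 0.087 when the libraries were quantile normalized (limma adjusted p = 0.39). Dynlrb1 had 388, 398 and 362 in spermatids and 334 and 418 in spermatocytes, with overlapping groups, and did not pass the test (log2 fold change 0.03 with SE 0.16, limma adjusted p = 0.86). Its row overlaps that of Pigu.

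The Tctex light chains are encoded by Dynlt3 on the X chromosome and by a cluster of Dynlt1 copies on chromosome 17. Dynlt3 had 1426, 1283 and 994 in spermatids, against 334 and 421 in spermatocytes, a log2 fold change of 1.70 ± 0.19 (SE), limma adjusted p = 1.9e-04, which is 3.27-fold. Dynlt1f, the copy with the most reads, had 20225, 19299 and 16983 in spermatids and 19421 and 15636 in spermatocytes and did not pass the test (log2 fold change 0.11 with SE 0.13, limma adjusted p = 0.46). Dynlt1b passed the test with a log2 fold change of 0.43 ± 0.14 (SE), limma adjusted p = 0.028, but was at -0.21 with equal library totals and -0.30 after quantile normalization. Its call also ended when any library other than spermatid replicate 1 was left out (limma adjusted p = 0.059 to 0.19). The values of Dynlt1a (0.15 with SE 0.14, limma adjusted p = 0.36) and Dynlt1c (-0.33 with SE 0.23, limma adjusted p = 0.22) did not pass the test. The Dynlt1c row holds 47.3% of the exon bases of its gene. Between 63.0% and 88.6% of the 50-base stretches of these 4 genes occur in another gene, mostly another copy, so the split of reads between them is uncertain. Summed over the 4 rows the level was 44334 ± 1651 (SD, n = 3) in spermatids and 39346 ± 5043 (SD, n = 2) in spermatocytes, and these groups overlapped.

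Several chains exist as pairs of related genes, and the log2 ratio within a pair was compared because a size factor per library cancels in it. The ratio of Dnah5 to Dnah8 averaged -3.25 ± 0.074 (SD, n = 3) in spermatids and -9.55 ± 0.16 (SD, n = 2) in spermatocytes, a difference of 6.29. That of Dnah9 to Dnah17 was -4.44 ± 0.17 in spermatids and -9.32 ± 0.052 in spermatocytes, a difference of 4.88. The ratio of Dynll2 to Dynll1 was -0.25 ± 0.067 in spermatids, where the genes had similar counts, and -2.22 ± 0.37 in spermatocytes, a difference of 1.97. The ratio of Dynlrb2 to Dynlrb1 was 4.37 ± 0.059 in spermatids and 3.64 ± 0.36 in spermatocytes. Moving the other way, Dync1li1 to Dync1li2 was -4.24 ± 0.029 in spermatids and -3.43 ± 0.13 in spermatocytes. The heavy chains of the cytoplasmic motors, Dync1h1 to Dync2h1, had a ratio of -0.47 ± 0.42 in spermatids and -1.45 ± 0.018 in spermatocytes. These 6 ratios did not overlap between the groups, and each had p = 0.2 (exact permutation test over samples, two-sided), the smallest value possible, for 8 pairs compared. The intermediate chain pairs overlapped. Dync1i1 to Dync1i2 was -5.43 ± 0.17 in spermatids and -5.31 ± 0.35 in spermatocytes (exact permutation p = 0.6), and Dnaic1 to Dnaic2 was 0.95 ± 0.16 in spermatids and 1.03 ± 0.075 in spermatocytes (exact permutation p = 0.8). With these p-values adjusted over the 8 pairs no pair could pass 0.05.

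**Figure D3:**
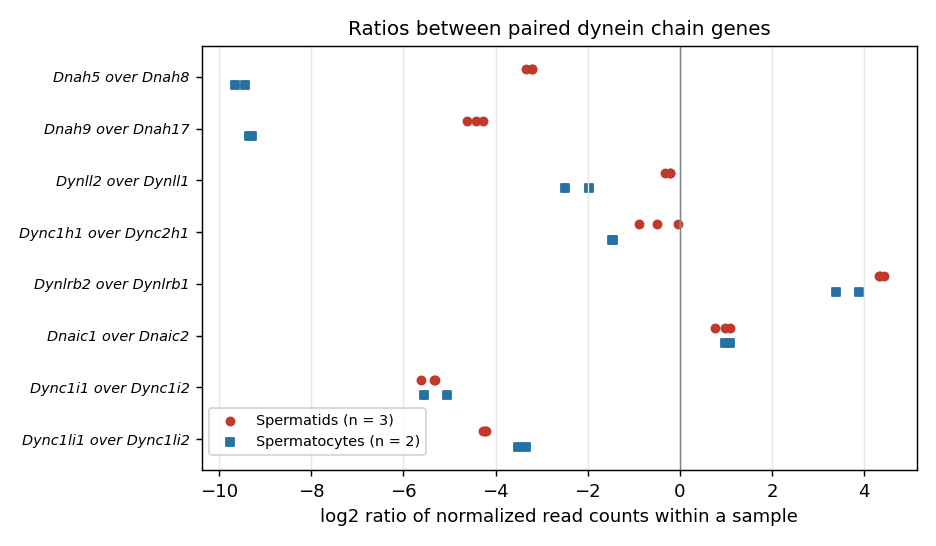
Log2 ratio of the normalized read counts of 8 pairs of related dynein chain genes in each sample, circles for 3 spermatid and squares for 2 spermatocyte samples. The ratios of Dnah5 to Dnah8 and Dnah9 to Dnah17 differ most, by 6.29 and 4.88, and those of the intermediate chain pairs overlap.

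The size of the changes depended on how the libraries were scaled, since spermatid libraries had larger normalized totals. Over all rows the deposited scaling put the median log2 fold change at 0.07, TMM factors at 0.09, equal library totals at -0.65 and quantile normalization at -0.40. Of the 17 rows higher in spermatids, 7 kept that call under each of these scalings: Dnah3, Dnah5, Dnah9, Dnah11, Dynll1, Dynll2 and Dynlt3. They also kept it under every other setting tried. Of the 12 lower rows 10 kept the call under each scaling, and 9 of them under every setting: Dnah1, Dnah2, Dnah7a, Dnah7b, Dnah8, Dnah14, Dnah17, the second row of Dnah12 and Dync1li1. Equal library totals and quantile normalization moved every dynein row towards lower values, so they could hardly end a lower call. The counts kept for higher and lower rows are therefore not comparable. The lower rows were set beside the Sertoli markers, which were also lower in spermatids. The ratio of spermatocyte replicate 2 to replicate 1 was 0.925 to 1.08 for the 12 lower dynein rows (median 0.978) and 0.883 to 2.19 for the 10 Sertoli markers (median 1.35). The part of Sertoli cells in the result was not tested.

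**Figure D4:**
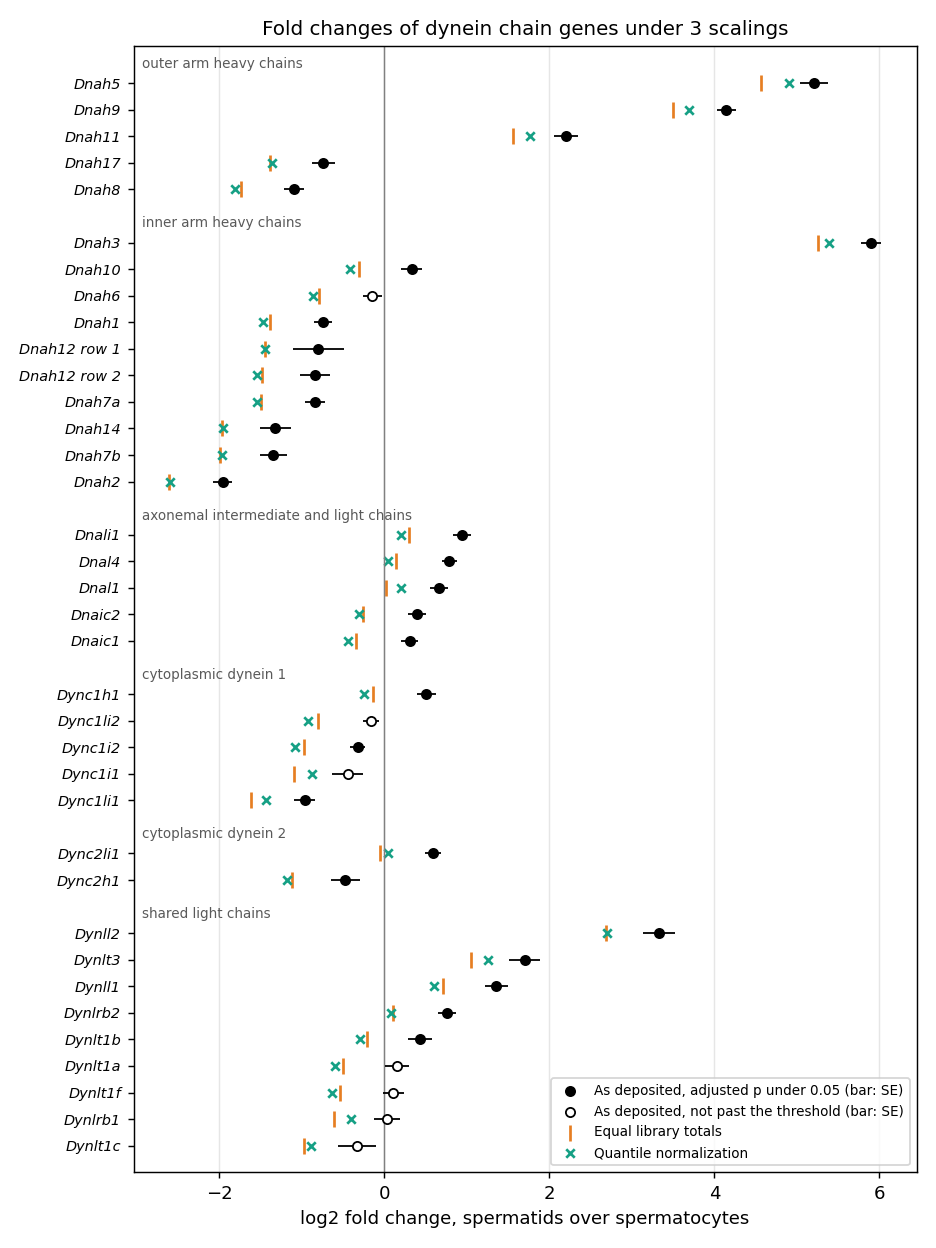
Log2 fold change of each dynein chain row, spermatids over spermatocytes, with its standard error; filled circles passed the test (adjusted p under 0.05) and open circles did not. Bars and crosses give the value with equal library totals and after quantile normalization, which lie left of the deposited value for every row; Dnah5 is at 5.20, 4.57 and 4.91 under the 3 scalings and Dnah2 at -1.96, -2.60 and -2.60.

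Genes that build or hold the arms were compared as lists, whose counts stand beside 40.6% of all rows tested called higher and 36.5% called lower. Of 14 measured assembly factors, which fold and join the chains in the cytoplasm, 6 were higher and 6 lower in spermatids, with a median log2 fold change of -0.07. Dnaaf1, the member with the most reads, had 129547, 133407 and 127757 in spermatids, against 98025 and 88259 in spermatocytes (0.49 with SE 0.09, limma adjusted p = 0.0022). Zmynd10, with the next most reads, had 23178, 19378 and 20958 in spermatids and 53933 and 49897 in spermatocytes (-1.30 with SE 0.10, limma adjusted p = 3.9e-05). Of 13 docking and other arm proteins 7 were higher and 1 lower, with a median of 1.07. Tcte3, a Tctex-type light chain, had 97768, 82592 and 71884 in spermatids and 90679 and 56496 in spermatocytes and did not pass the test (0.22 with SE 0.22, limma adjusted p = 0.38). Ccdc63, a docking protein of sperm outer arms, had 44465, 47900.0 and 42151 in spermatids and 643 and 434 in spermatocytes (6.40 with SE 0.17, limma adjusted p = 5.0e-07). Its spermatocyte level was 1.20% of its spermatid level. Of 12 genes of the nexin-dynein regulatory complex and of the rulers that space the inner arms, 7 were higher and 2 lower, with a median of 0.61. Ccdc65 had 36988, 37410.1 and 35201 in spermatids and 16493 and 14735 in spermatocytes (1.23 with SE 0.09, limma adjusted p = 2.5e-05). Ccdc39, a ruler protein, had 17150.5, 11937 and 13681 in spermatids and 28694 and 26064 in spermatocytes (-0.96 with SE 0.16, limma adjusted p = 0.0012). With equal library totals 2 assembly factors were higher and 9 lower, 6 docking and arm proteins higher and 4 lower, and 3 genes of the last list higher and 5 lower.

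Partners of cytoplasmic dynein were mixed. Of 12 subunits of dynactin, the complex that activates dynein 1, 5 were higher in spermatids, 41.7%, and none lower, with a median of 0.19. The share of all rows called higher was 40.6%. Dctn2, the subunit also called dynamitin, had 32906, 34432 and 32099 in spermatids and 30523 and 27643 in spermatocytes and did not pass the test (0.19 with SE 0.09, limma adjusted p = 0.087). Actr10, a subunit of the pointed end, had 43180.2, 38892 and 35930.4 in spermatids and 15899 and 15359.7 in spermatocytes (1.33 with SE 0.10, limma adjusted p = 3.2e-05). With equal library totals and after quantile normalization 4 of the 12 dynactin genes were higher and 7 lower. Of 22 tested rows of regulators and adaptors 9 were higher and 10 lower, with a median of -0.59. Pafah1b1, which encodes the dynein regulator LIS1, had 51962, 38911 and 37173 in spermatids and 22302 and 19935 in spermatocytes (1.00 with SE 0.16, limma adjusted p = 9.8e-04). Hook2, a cargo adaptor gene, had 12893, 14120.2 and 13399 in spermatids and 10495 and 8878 in spermatocytes (0.48 with SE 0.10, limma adjusted p = 0.0045). The values in parentheses are log2 fold changes, and the medians stand beside 0.07 for all rows tested.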

How the data were processed

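Spermatids and spermatocytes were sorted by sedimentation and polyadenylated RNA was sequenced with a stranded kit, per the labels' protocols. Each deposited value is a normalized signal, a read count per gene scaled by the authors with 1 size factor for each library, per the file headers. The submitters' processing notes name DESeq, STAR 2.4.0, SAMtools, Picard, FastQC and mm10 with no role or order. The sources used here do not name the read counter, its strand setting or its handling of reads with several matches. All values of a library were whole multiples of 1 value within 0.001 (100% of values), so the reads behind them could be recovered, 52784231 to 84361908 per library.

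Groups came from the cell type labels. Replicate numbers follow accession order and pair no samples. The members, the gene lists and the tests were chosen with earlier results of these data known. Rows with a mean of at least 10 were tested with limma 3.58.1 (R 4.3.3, eBayes with a trend) on log2(value + 1), a scale that understates the change of low genes, with Benjamini-Hochberg adjustment at 0.05 over all 28370 rows. The text names every dynein row, and gives values in every sample for the rows with most reads or the largest changes of each role and for related pairs. Of each list it names the 2 genes with the highest mean. Shares and ratios were compared by exact permutation tests over samples (10 splits). Alternatives were pseudocounts of 0.5 and 5, no filter or a mean of at least 100, 3 other scalings, no trend, edgeR 4.0.16 and DESeq2 1.42.0 on the recovered reads with the authors' size factors, and each replicate left out. Exon lengths and shared 50-base stretches came from GENCODE release M21, and promoters from RefSeq (GRCm38.p6). Shares of exon bases under 90% stand beside the values they touch, and rows that overlap another named row are listed near the start. Python 3.11.15 (numpy 2.4.6, pandas 2.3.3, scipy 1.17.1, matplotlib 3.10.9) was used for tables and plots. Counts here carry no molecular identifiers. The standard errors and p-values of limma rest on the spread among samples, not on counting error alone.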

Additional observations from a re-analysis of the deposited data

How the results depend on the processing

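No paired analysis was possible because the replicate numbers were given in accession order and pair no samples. The counts of 17 dynein rows higher and 12 lower in spermatids became 8 and 20 with equal library totals and 7 and 21 after quantile normalization. Over all rows the same settings called 8510 higher and 14635 lower of 28914, and 9553 higher and 13334 lower of 28470, against 11512 and 10359 of 28370 as deposited. In the same order of scalings, axonemal intermediate and light chains had 1 and 0 rows higher and 1 and 2 lower (5 and 0 as deposited), cytoplasmic chains 0 and 0 higher and 5 and 5 lower (2 and 3 as deposited), and shared light chains 3 and 3 higher and 4 and 4 lower (5 and 0 as deposited). Without the eBayes trend axonemal intermediate and light chains had 3 rows higher and cytoplasmic chains 1 lower. The log2 fold change turned negative with equal totals and with quantile normalization for Dnah10 (-0.31 and -0.42), Dnaic1 (-0.34 and -0.44), Dnaic2 (-0.25 and -0.31), Dync1h1 (-0.13 and -0.25), Dynlrb1 (-0.61 and -0.40), Dynlt1a (-0.49 and -0.59), Dynlt1b (-0.21 and -0.30) and Dynlt1f (-0.54 and -0.64), and with equal totals for Dync2li1 (-0.052). These scalings move the zero point, as the medians over all rows show. Leaving out 1 sample gave 12 to 17 rows higher and 9 to 14 lower. Between these fits axonemal intermediate and light chains had 3 to 5 rows higher, with 3 without spermatocyte replicate 2. Cytoplasmic chains had 1 to 2 higher, with 1 without spermatocyte replicate 2, and 1 to 5 lower, with 5 without spermatid replicate 1 and 1 without spermatocyte replicate 1. Shared light chains had 0 to 1 lower, with 1 without spermatid replicate 3. The calls that ended in some of these fits were those on Dnah10, the first row of Dnah12, Dnaic1, Dnaic2, Dync1h1, Dync1i2, Dync2h1 and Dynlt1b. Dync1i1 and Dync1li2 passed the test without spermatid replicate 1 and Dynlt1c without spermatid replicate 3 (limma adjusted p = 0.044, 0.036 and 0.027, all lower in spermatids). edgeR and DESeq2 gave the same call as limma for all 36 rows. When signal was not divided by length, the difference between spermatids and spermatocytes in share was 4.34 percentage points for Dnah3 (15.6 per kilobase), 9.36 for Dnah5 within Dnah5 and Dnah8 (13.9 per kilobase) and 1.87 for Dnah17 (-1.17 per kilobase). With a pseudocount of 5 the difference in the log2 ratio of Dnah5 to Dnah8 was 6.12. Depth limits mainly Dnah5 in spermatocytes, with 25 and 46 reads.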

Other observations

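Some member genes also hold rows of the table that carry no symbol and were not counted among the 36. In Dnah14 there were 3 such rows, and all were lower in spermatids, like the named row. The first had 394, 209 and 285 in spermatids and 617 and 644 in spermatocytes, the second 361, 206 and 298 in spermatids and 1536 and 1598 in spermatocytes, and the third 660.5, 400.4 and 631 in spermatids and 1309 and 1293 in spermatocytes. A row at the end of Dnah7c, the other copy of the Dnah7 gene, on chromosome 1 at 46791828 to 46807463, had 907, 907 and 1066 in spermatids and 2139 and 2191 in spermatocytes.

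A short row inside Dync1li2 (chromosome 8, 104418491 to 104418847) had 6.20, 8.92 and 7.34 in spermatids and 467 and 356 in spermatocytes, while the row of the whole gene did not pass the test. A row at the start of Dync1h1 (chromosome 12, 110599783 to 110601963) had 163, 174 and 216 in spermatids and 876 and 812 in spermatocytes, while Dync1h1 itself was higher in spermatids with the deposited scaling. A row at the end of Dnah8 (chromosome 17, 30873995 to 30875319) had 2732, 3340.0 and 3183 in spermatids and 2334 and 2394 in spermatocytes, whereas Dnah8 was lower in spermatids. These values were not tested.

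A row of 29 bases at the pseudogene Dynlt1-ps1 on chromosome 6 had 9030, 8392 and 6515 in spermatids and 7702 and 5062 in spermatocytes.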
